A study of Mus musculus with 18 samples.

Results

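Dnajb13 and Tex14 are genes best known from the germ line, and both gave high signals in mouse cumulus cells wherever an oocyte was present. All probe sets whose only annotated symbol is one of these names were taken, 1431119_at for Dnajb13 and 1419240_at for Tex14, which are 2 of the 45101 probe sets on the array and 2 of 18193 named genes. The study asked how estrogen and oocytes together shape the transcripts of cumulus cells, and measured total RNA on 18 Affymetrix Mouse 430 2.0 arrays, 3 in each of 6 groups. The cells came from antral follicles of female mice. Intact cumulus-oocyte complexes (COC), complexes whose oocyte had been taken out (OOX, called oocyte-free here) and oocyte-free complexes kept together with oocytes (called cocultures) were each cultured without and with estrogen. Culture is thus shared by all 6 groups. Strain, age, estrogen dose and time in culture are not given in the sources used here. Whether the 3 replicates of each group are independent cultures or animals is not stated, so their spread may be technical. For 1 array, oocyte-free with estrogen replicate 1, the title names estrogen and the source name and treatment label do not. The title was followed, and the differences of both genes that rest on this array are also given under its other label.

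DNAJB13 belongs to the J-domain family, whose members act as cochaperones of heat shock proteins, and is a component of the radial spokes of sperm flagella and motile cilia. Radial spokes link the outer microtubule doublets of the axoneme to its centre. TEX14 is needed for the intercellular bridges between developing germ cells: it binds the midbody protein CEP55 and blocks the last step of cytokinesis, which leaves the bridge open. Cumulus cells are granulosa cells that surround the oocyte, exchange small molecules with it through gap junctions and respond to growth factors that it secretes.

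The promoters are shown because the signals of both genes followed the presence of oocytes. Each window runs from 250 bases before to 50 bases after the annotated start, 5′ to 3′, and comes from RefSeq on GRCm38.p6, in which both genes were matched. Capitals mark the matches, on either strand, to the motifs described after the sequences.
Dnajb13, chr7:100514766-100515065, minus strand: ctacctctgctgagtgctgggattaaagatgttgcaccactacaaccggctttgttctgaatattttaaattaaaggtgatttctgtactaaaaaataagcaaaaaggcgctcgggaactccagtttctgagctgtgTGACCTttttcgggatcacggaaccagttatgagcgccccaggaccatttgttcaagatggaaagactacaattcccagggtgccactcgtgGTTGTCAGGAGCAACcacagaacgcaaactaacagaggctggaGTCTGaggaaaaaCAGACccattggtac
Tex14, chr11:87404815-87405114, plus strand: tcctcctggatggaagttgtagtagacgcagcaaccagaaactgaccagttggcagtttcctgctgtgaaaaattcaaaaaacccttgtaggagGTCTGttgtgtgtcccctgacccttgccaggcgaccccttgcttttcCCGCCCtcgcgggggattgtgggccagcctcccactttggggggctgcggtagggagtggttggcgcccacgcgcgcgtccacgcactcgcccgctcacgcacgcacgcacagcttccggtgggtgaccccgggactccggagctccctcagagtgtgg

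The windows differ in base composition. That of Dnajb13 has a GC content of 46.0% and 8 CpG dinucleotides and that of Tex14 62.3% and 20, against medians of 52.7% and 7 over the 32851 promoters in the table. The letters CAGAC, the core of a SMAD binding site, occur 2 times in the Dnajb13 window and 1 time in the Tex14 window, and 49.6% of all promoters hold them. The nuclear receptor core site AGGTCA was found 1 time, in the Dnajb13 window (16.3% of promoters), and the GC box GGGCGG 1 time, in the Tex14 window (35.7%). Neither window holds the palindromic estrogen response element (0.07% of promoters), the SMAD palindrome GTCTAGAC (0.213%), the NR5A site CAAGGTCA (1.56%), which contains AGGTCA, the cyclic AMP response element TGACGTCA (1.79%) or the E-box CACGTG (7.15%). Also without a match were the RFX core site GTTGCC (12.5%), the forkhead site GTAAACA (3.65%) and the TATA box TATAAA (13.6%). The longest run of capitals in the Dnajb13 window, starting at position -21 from the annotated start, is an imperfect inverted repeat of the RFX core site. A pattern for it, with a free base in each arm and free bases between the arms, was written after the sequence had been read, and 32 promoters (0.0974%) hold it. The pattern was fitted to these letters, so this share does not measure how unusual the match is. RFX factors are known to bind inverted repeats of this kind at ciliary genes, and binding to this one was not tested. A match describes letters in a window and is not a binding site.

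With oocytes present, Dnajb13 stood among the brightest probe sets of each array, and without them it was dim or middling. Values are log2 expression after RMA, so that 1 unit is a 2-fold change. Without estrogen, Dnajb13 read 11.68, 11.68 and 11.47 on the intact arrays, 4.23, 4.97 and 4.38 on the oocyte-free arrays and 11.45, 11.48 and 11.44 on the coculture arrays. The oocyte-free arrays lay far below all others, and the coculture arrays overlapped the intact ones. Intact values stood at the 98.1 to 98.4 percentile of all probe sets of their array, and oocyte-free values at the 22.4 to 37.4 percentile. Detection calls were not used here, and a log2 value in this low range can be mostly background, which would make the true fold larger than the measured one.

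Oocyte-free complexes differed from intact ones by -7.08 ± 0.217 for Dnajb13 (log2, SE of the fit, n = 3 per group), or 136-fold, the largest fall among 12252 genes compared. Cocultures differed from oocyte-free complexes by 6.93 ± 0.217, or 122-fold, the largest gain. Both differences use the same oocyte-free arrays. The genes were chosen by their high signal with oocytes and low signal without them on these arrays, so their differences are a description with no test. In these bulk samples, fewer cells of a type and less RNA per cell cannot be told apart.

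With estrogen the order of the culture types was the same, at a smaller distance. Dnajb13 read 11.70, 11.52 and 11.54 on the intact arrays, 6.37, 5.98 and 5.37 on the oocyte-free arrays and 11.12, 11.43 and 11.49 on the coculture arrays. The oocyte-free arrays again lay below every other array. Oocyte-free complexes differed from intact ones by -5.68 ± 0.217, or 51.3-fold, and cocultures from oocyte-free complexes by 5.44 ± 0.217, or 43.4-fold. Among the genes compared, these ranked 2 from the largest fall and 2 from the largest gain.

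By group mean, Dnajb13 ran from intact (11.61 ± 0.121, SD, n = 3) and intact with estrogen (11.59 ± 0.0987) through coculture (11.46 ± 0.0208) and coculture with estrogen (11.35 ± 0.199) to oocyte-free with estrogen (5.91 ± 0.504) and oocyte-free (4.53 ± 0.391). The intact groups overlapped each other, and so did the cocultures. The lowest intact array with estrogen, at 11.52, lay just above the highest coculture array without it, at 11.48. The oocyte-free groups did not overlap, the arrays with estrogen being higher, but with the contradictory array counted as without estrogen they do.

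Tex14 showed the same split between arrays with and without oocytes, over a smaller range. Without estrogen it read 10.80, 10.92 and 10.69 on the intact arrays, 5.65, 5.17 and 5.39 on the oocyte-free arrays and 10.59, 11.17 and 10.84 on the coculture arrays. Oocyte-free arrays were lower than every array with oocytes, and cocultures overlapped intact complexes. Oocyte-free values stood at the 41.8 to 52.0 percentile of their arrays and intact values at the 96.6 to 97.1 percentile. The difference was -5.40 ± 0.227, or 42.2-fold, between oocyte-free and intact complexes, and 5.46 ± 0.227, or 44.1-fold, between cocultures and oocyte-free complexes. Each ranked 5 among the genes compared without estrogen.

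With estrogen, Tex14 read 10.30, 10.54 and 10.35 on the intact arrays, 6.85, 6.95 and 5.88 on the oocyte-free arrays and 10.12, 10.07 and 10.25 on the coculture arrays. Oocyte-free arrays were again the lowest, and cocultures lay below intact complexes with no overlap. The differences were -3.84 ± 0.227, or 14.3-fold, for oocyte removal and 3.59 ± 0.227, or 12.0-fold, for added oocytes, which ranked 21 and 22. By group mean the order was coculture (10.87 ± 0.291, SD, n = 3), intact (10.80 ± 0.115), intact with estrogen (10.40 ± 0.127), coculture with estrogen (10.15 ± 0.0929), oocyte-free with estrogen (6.56 ± 0.591) and oocyte-free (5.40 ± 0.240). Of these neighbours, coculture and intact overlapped and the others did not.

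**Figure D1:**
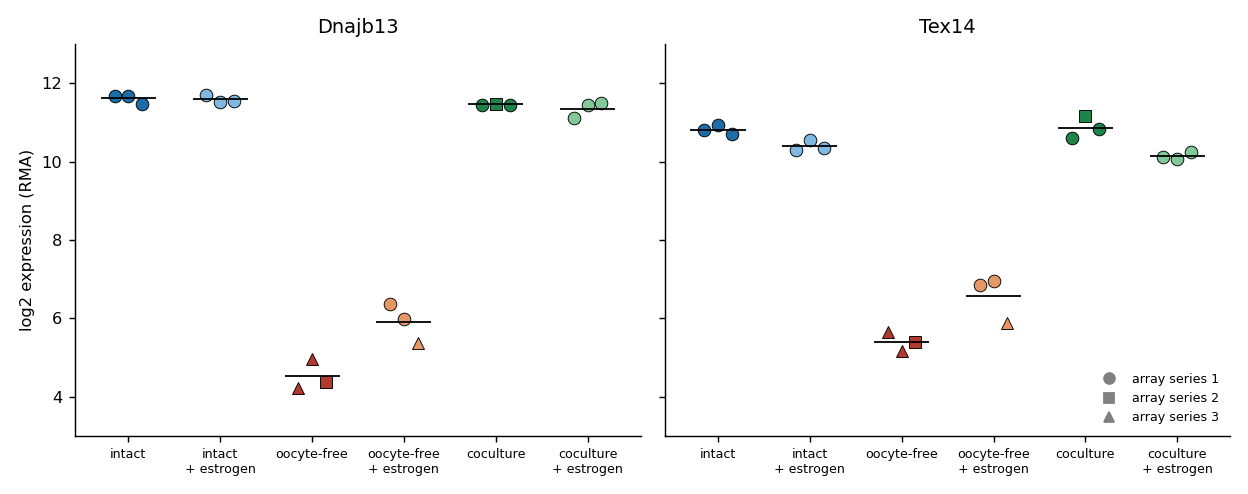
Each point is the log2 RMA expression (y axis) of 1 array in its group (x axis) for Dnajb13 (left) and Tex14 (right); horizontal lines are means of 3 arrays and the marker shape gives the array series. Oocyte-free arrays read 4.23 to 6.37 for Dnajb13 and 5.17 to 6.95 for Tex14, below every array with oocytes.

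Lack of overlap was common among all genes. On oocyte removal, 24.7% of the genes compared had all oocyte-free arrays below all intact arrays without estrogen and 24.8% with it. On adding oocytes, all coculture arrays were above all oocyte-free arrays in 22.2% and 21.2%. Both members were among these genes in each comparison, and what set them apart was the size of the difference, for which they were chosen.

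The array names fall into 3 series, of 13, 2 and 3 arrays, spread unevenly over the groups. No series held both intact and oocyte-free complexes without estrogen. There, a fit with the series as a term gave removal differences of -6.68 for Dnajb13 and -5.04 for Tex14. With estrogen, within series 1, removal gave -5.41 and -3.50 and added oocytes 5.17 and 3.25. Within series 2, with 1 array in each group, added oocytes without estrogen gave 7.10 and 5.78. Replicate 3 of the oocyte-free group without estrogen was less like its group, its highest correlation being 0.944 with an array of its own group, against 0.970 to 0.991 for the other 17 arrays. Without it, removal gave -7.01 and -5.39.

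Estrogen went with higher signals of both genes where the oocyte was missing. In oocyte-free complexes the difference was 1.38 ± 0.217 for Dnajb13, or 2.60-fold, and 1.16 ± 0.227 for Tex14, or 2.23-fold, with no overlap for either (11.4% of genes were higher without overlap). In intact complexes Dnajb13 differed by -0.02 ± 0.217, with overlap. Tex14 differed there by -0.41 ± 0.227, all 3 arrays with estrogen being lower (15.5% of genes). In cocultures the difference was -0.11 ± 0.217 for Dnajb13, with overlap, and -0.72 ± 0.227 for Tex14, without (12.1% of genes). Tex14 thus read higher with estrogen without oocytes and lower with it when they were present.

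The size of the estrogen difference in oocyte-free complexes depended on which arrays entered. The array with contradictory labels held the highest Dnajb13 value of the 6 oocyte-free arrays, and counted as without estrogen it left differences of 0.69 for Dnajb13 and 0.65 for Tex14. The arrays with and without estrogen then overlapped for both genes. Under that label, removal was -6.62 for Dnajb13 and -5.04 for Tex14 without estrogen and -5.91 and -3.98 with it, and added oocytes gave 6.47 and 5.10 without and 5.67 and 3.73 with estrogen. Only array series 3 held both oocyte-free groups, with 1 array with estrogen and 2 without. Within it the differences were 0.77 and 0.47. Without replicate 3 of the group with estrogen, the lowest of its group for both genes, the Tex14 difference was 1.50. The sign was positive in each case.

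Cocultures came close to intact complexes. Without estrogen they differed by -0.15 ± 0.217 for Dnajb13 and 0.06 ± 0.227 for Tex14, with overlapping arrays. With estrogen the differences were -0.24 ± 0.217 and -0.25 ± 0.227, and for both genes all 3 coculture arrays lay below the intact ones, as for 5.58% of genes. Those 6 arrays all belong to series 1.

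**Figure D2:**
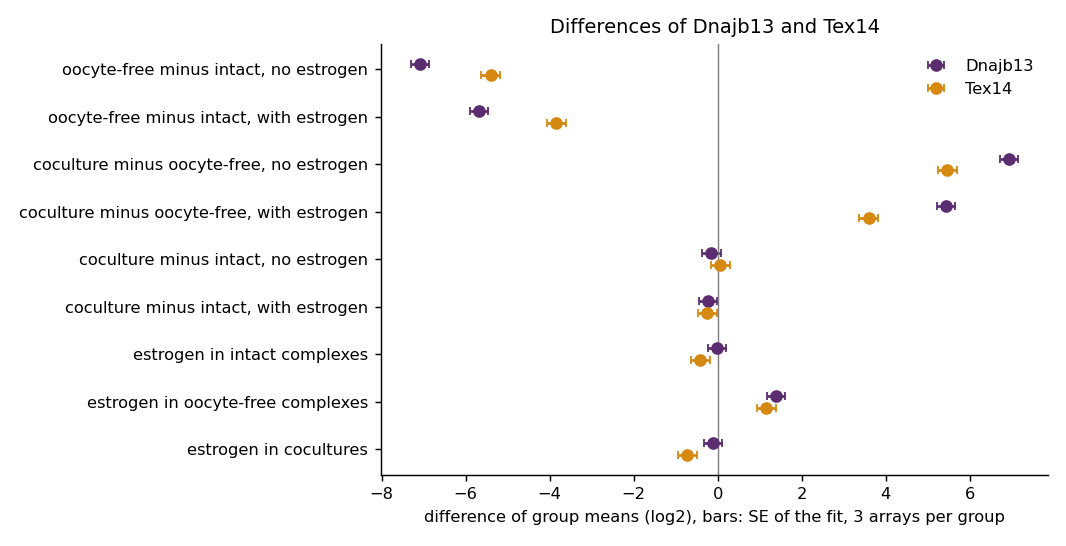
Points are differences of group means in log2 units (x axis) in 9 comparisons (y axis) for Dnajb13 and Tex14, with bars for the SE of the fit and 3 arrays per group. Removal lies at -7.08 and -5.40 without estrogen, added oocytes at 6.93 and 5.46, and coculture against intact near 0.

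The labelled cell type was checked against marker lists. Of 13 granulosa and cumulus markers, 12 had a probe set and all 12 passed the filter on low values. The gap junction gene Gja1 read 13.17 in intact and 13.25 in oocyte-free complexes without estrogen, and Foxl2, a granulosa transcription factor gene, 10.60 and 11.63. On removal 7 of the 12 fell and 2 rose without estrogen, where limma called 20.7% of all genes lower and 18.0% higher at an adjusted p under 0.05, and 7 fell with estrogen, where it called 17.3% lower and 12.9% higher. The list median was -1.15 without and -0.72 with estrogen, against 0.01 and -0.05 for all genes. Among those that fell without estrogen were the inhibin subunit gene Inhbb, by 4.67, Hsd17b1, by 4.24, the follistatin gene Fst, by 3.31, and the FSH receptor gene Fshr, by 1.32. The summed linear level of the 12 was 43387 to 46305 on intact and 24345 to 27266 on oocyte-free arrays without estrogen. The 10 theca and stroma markers with a probe set summed to 4526 to 5272 and 1884 to 2727 without estrogen and to 877 to 959 and 3053 to 5031 with it. Of the 5 tested, 1 rose and 3 fell on removal without estrogen (median -1.22), and 3 rose with it (median 1.02). Without estrogen Dcn, a stromal proteoglycan gene, rose by 4.48, while the hedgehog pathway genes Gli1 and Ptch1 and the smooth muscle actin gene Acta2 fell by 1.68, 1.22 and 1.91. The 9 endothelial and blood cell markers summed to 274 to 287 and 267 to 344 without estrogen, and the 6 surface epithelium markers to 265 to 322 and 376 to 424. The part of these lists in the values of Dnajb13 and Tex14 was not tested.

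Oocyte markers were set beside both genes, since oocytes were present in the same groups. Of 24 markers, 22 had a probe set and 6 were bright enough to be tested. The growth factor gene Gdf9 read 6.88 in intact, 6.94 in oocyte-free and 7.02 in cocultured complexes without estrogen, with a removal difference of 0.07 (limma adjusted p = 0.761). The other growth factor gene, Bmp15, read 4.83, 4.84 and 4.78, and Zp3, which encodes a zona pellucida protein, 4.69, 5.05 and 5.02. The 16 markers below the filter had means of 2.80 to 5.46 in intact and 2.73 to 5.39 in oocyte-free complexes. RMA gives no value of 0, so no marker can be called absent.

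Many oocyte markers stood highest on 1 of the 2 arrays of series 2. These arrays also had the narrowest spread of log2 values. The interquartile range was 2.53 on oocyte-free replicate 3 and 2.69 on coculture replicate 2, against 2.76 to 3.05 on the others. Whether other dim genes stood highest there was not counted. Of the 21 markers other than Bcl2l10, 10 had their highest value of all 18 arrays on oocyte-free replicate 3 without estrogen and 8 on coculture replicate 2 without estrogen. On the latter Ooep read 7.46 (5.71 and 5.38 on the other coculture arrays), Dppa3 6.76 (5.72 and 5.84), Nlrp5 6.40 (5.27 and 5.28) and Zp3 5.86 (4.56 and 4.65), all genes of oocyte proteins. Without that coculture array, added oocytes gave 6.92 for Dnajb13 and 5.31 for Tex14. The part of these markers in the values of both genes was not tested.

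Bcl2l10, a BCL2 family gene with high expression in oocytes, was the 1 of the 6 tested markers called on removal, where 20.7% of all genes were called lower without estrogen and 17.3% with it. It read 8.31 ± 0.344 in intact and 4.40 ± 0.760 in oocyte-free complexes without estrogen (SD, n = 3 each) and 8.11 in cocultures. It passed the filter on low values only through arrays with oocytes, its highest oocyte-free value being 5.25. It fell by 3.91 ± 0.339 on removal (SE; limma adjusted p = 9.43e-08), or 15.0-fold, and by 4.37 with estrogen (limma adjusted p = 3.52e-08). The 21 other markers summed to 757 to 840 on intact, 756 to 1007 on oocyte-free and 763 to 1152 on coculture arrays without estrogen, and to 741 to 757, 675 to 756 and 668 to 803 with it. With no filter on low values, Mos, Nlrp14 and Tcl1 rose on removal without estrogen, by 0.40, 0.41 and 0.48, and Kit fell by 0.75 with it.

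Among genes of the germ line, Tex15, which serves meiotic recombination and transposon silencing, was the 1 of 4 tested genes called on removal, beside 20.7% of all genes called lower. Of 30 germ cell and spermatogenesis genes, 29 had a probe set and 4 were tested, with a median removal difference of -0.16 without estrogen against 0.01 for all genes. Tex15 read 9.75 ± 0.412 in intact and 7.95 ± 0.714 in oocyte-free complexes (SD, n = 3 each) and 10.08 in cocultures. It fell by 1.80 ± 0.338 on removal (SE; limma adjusted p = 0.000405), or 3.48-fold, and by 1.91 with estrogen. It rose by 2.13 and 1.83 on adding oocytes. Stra8, of meiotic entry, Prm1, of sperm chromatin, and Ldhc, a sperm lactate dehydrogenase gene, had differences of -0.25, 0.09 and -0.07 and were not called. The 25 genes below the filter had means of 2.41 to 5.31 in intact and 2.39 to 5.36 in oocyte-free complexes. With no filter, Piwil2, of the piRNA pathway, rose by 1.08 and the recombinase gene Dmc1 by 0.34 on removal without estrogen.

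**Figure D3:**
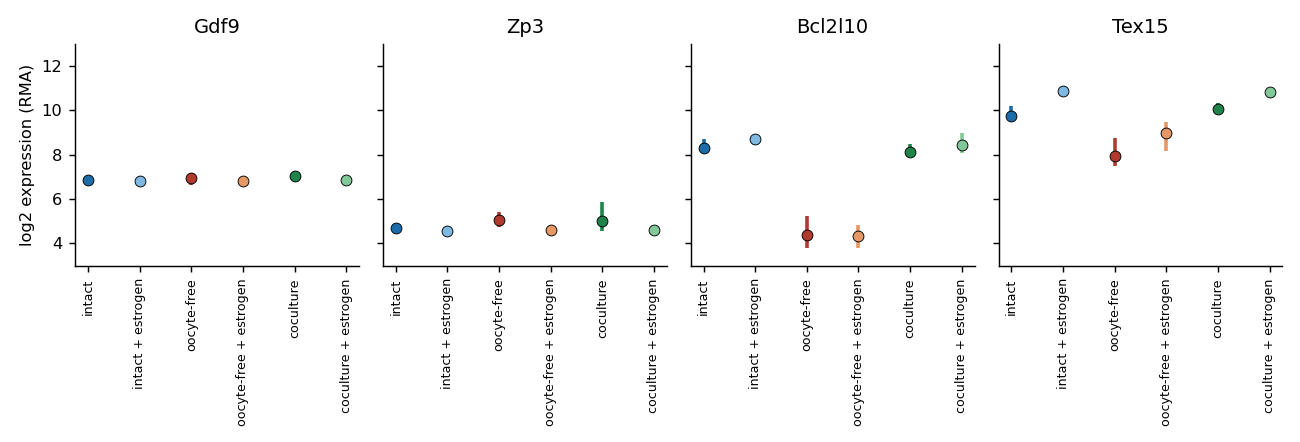
Points are means of 3 arrays and vertical lines the range of the arrays (log2 RMA expression, y axis) in the 6 groups (x axis) for Gdf9, Zp3, Bcl2l10 and Tex15. Gdf9 and Zp3 stay near one level, while Bcl2l10 reads 8.31 in intact and 4.40 in oocyte-free complexes and Tex15 9.75 and 7.95.

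Other genes of the axoneme, not all of the radial spoke, moved by much less than Dnajb13. Of 38 axoneme and radial spoke genes, 34 had a probe set and 10 were tested, and on removal without estrogen 4 of the 10 fell, beside 20.7% of all genes, and the other 6 were not called. The list median was -0.31 against 0.01 for all genes. Tekt1, a tektin of ciliary microtubules, fell by 1.47 (limma adjusted p = 2.29e-05), from 6.44 to 4.97. Ropn1l, of the radial spoke and the sperm fibrous sheath, fell by 1.23 (limma adjusted p = 0.000481), from 6.19 to 4.97. Tekt1 and Ropn1l passed the filter on low values only through arrays with oocytes. On the oocyte-free arrays, whose medians were 5.53 to 5.71, they read at most 5.38 and 5.27. They thus entered the count and the list median by their level with oocytes. Rsph9, a radial spoke head gene, fell by 0.75 (limma adjusted p = 0.0170), and Dnah11, an outer arm dynein gene, by 0.45 (limma adjusted p = 0.0129). The call of Rsph9 ended without intact replicate 2 (-0.59), without oocyte-free replicate 3 (-0.57), with the series term (-0.55) and with the contradictory array relabelled (-0.46). That of Dnah11 ended without oocyte-free replicate 1 (-0.37) and in a fit of the compared groups alone (-0.45). Rsph1, another spoke head gene, read 5.67 in both groups.

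With estrogen, 3 of the 10 axonemal genes fell, where 17.3% of all genes were called lower. Ropn1l fell by 2.37 (limma adjusted p = 5.59e-07), from 6.89 to 4.52. Nme5, a radial spoke gene, fell by 0.79 (limma adjusted p = 0.00670), and Dnah11 by 0.47 (limma adjusted p = 0.0138). Nme5 also passed the filter only through arrays with oocytes, its highest oocyte-free value being 5.51. The Dnah11 call ended without intact replicate 1 (-0.43) or oocyte-free replicate 1 (-0.41) of the groups with estrogen, the latter being the array with contradictory labels. It also ended with that array counted as without estrogen (-0.41). On adding oocytes, 4 of the 10 rose without and 3 with estrogen, where 19.8% and 14.2% of all genes were called higher. Of 26 alternatives, the calls without estrogen ended under 8 for Ropn1l, 6 for Rsph9 and 4 for Dnah11, while that of Tekt1 held. With estrogen they ended under 19 for Dnah11 and 2 for Nme5, while that of Ropn1l held. The 24 axonemal genes below the filter had means of 2.60 to 5.50 in intact and 2.62 to 5.41 in oocyte-free complexes. With no filter, Tekt2, another tektin gene, rose on removal by 0.95 without and 0.75 with estrogen, and Cfap61, a radial spoke gene, by 0.56 without it. Of 8 regulators of motile cilia, Rfx2 and Trp73 were tested, with removal differences of -0.02 and 0.06 that were not called; with no filter Rfx3 rose by 0.60 and 0.57, and Myb fell by 0.53 with estrogen. Foxj1, a main transcription factor of motile cilia, read 4.21 in intact and 4.25 in oocyte-free complexes.

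The other members of the DNAJB family went both ways. Of 12 genes, 11 were tested; 3 fell and 1 rose on removal without estrogen, and 3 fell and 2 rose with it, beside 20.7% lower and 18.0% higher, and 17.3% and 12.9%, of all genes. The medians were 0.06 and -0.05, against 0.01 and -0.05 for all genes. With the most variable probe set per gene, 6 fell without estrogen, and the share of all genes called under that choice is not given here. Dnajb14, a cochaperone of the endoplasmic reticulum membrane, fell by 1.69 (limma adjusted p = 2.06e-05) and with estrogen fell by 2.08. Dnajb11, of the endoplasmic reticulum lumen, fell by 0.56 and 0.75, and Dnajb3, which is expressed in the testis, by 0.69 and 0.58. Dnajb5 rose by 0.95 and 0.86. Dnajb4 rose by 0.99 with estrogen and differed by 0.01 without it. Heat-inducible Dnajb1 differed by 0.03 and 0.09 and was not called. Without estrogen the Dnajb3 call ended without intact replicate 2 (-0.47) and the Dnajb11 call with the series term (-0.51). With estrogen the Dnajb3 call ended without intact replicate 1 (-0.48) or any of the 3 oocyte-free arrays (-0.59 to -0.57). The Dnajb4 call ended without intact replicate 1 (0.93) or 2 (0.90). Both also ended with the contradictory array relabelled (-0.59 and 1.00).

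Genes of the midbody and the intercellular bridge, where TEX14 acts, were mostly lower without oocytes. Of 22 genes, 21 were tested, and on removal without estrogen 13 fell and 2 rose, beside 20.7% and 18.0% of all genes, with a list median of -0.87 against 0.01. Aurkb, a kinase gene of the spindle midzone, fell by 4.04 (limma adjusted p = 1.33e-07), from 8.62 to 4.58. Prc1, which bundles midzone microtubules, fell by 2.76, and the mitotic kinase gene Plk1 by 2.65. Cep55, whose protein TEX14 binds, fell by 2.63 (limma adjusted p = 1.47e-07), from 7.32 to 4.70. Septin9, of the septin filaments at the cleavage site, rose by 1.55 (limma adjusted p = 1.36e-05), and Tsg101, of the abscission machinery, by 0.74 (limma adjusted p = 0.0136). The Tsg101 call ended without intact replicate 3 (0.67), without oocyte-free replicate 1 (0.60) or 2 (0.62) and with the series term (0.38).

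With estrogen 11 of the 21 fell, beside 17.3% of all genes, and the other 10 were not called. Aurkb fell by 2.54, Prc1 fell by 1.84, Plk1 fell by 1.41 and Cep55 fell by 1.30. On adding oocytes 13 rose and 1 fell without estrogen (19.8% and 13.4% of all genes), and 10 rose with it (14.2%). Aurkb, Prc1, Plk1 and Cep55 serve division in dividing cells of any type. Cep55 read 7.57 in cocultures without estrogen, beside 7.32 in intact complexes.

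**Figure D4:**
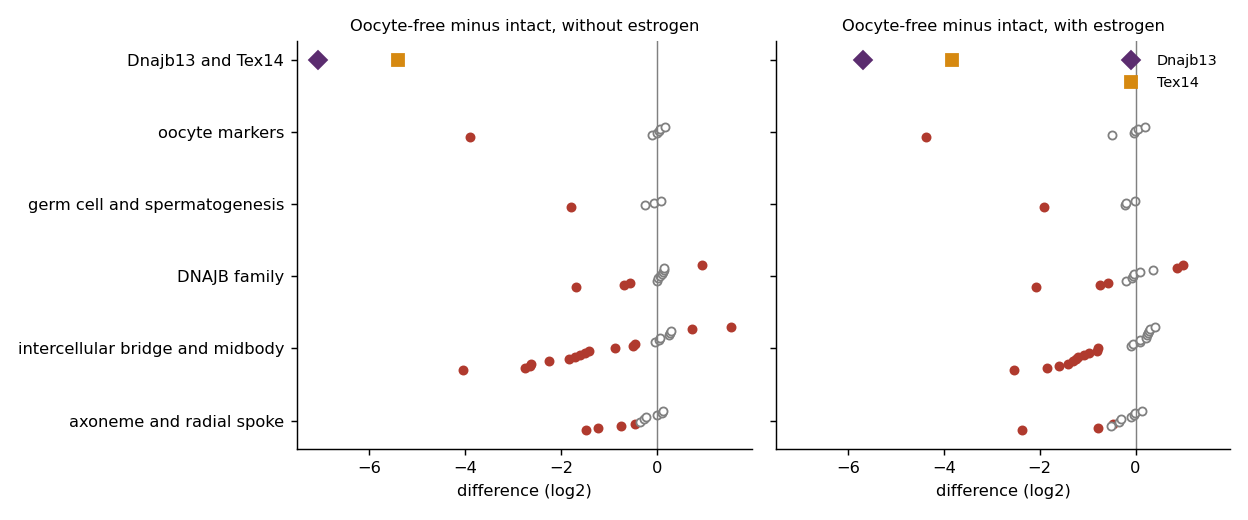
Each circle is the difference between oocyte-free and intact complexes in log2 units (x axis) of 1 tested gene of a list (y axis), without estrogen (left) and with it (right); filled circles have a limma adjusted p under 0.05. Without estrogen Dnajb13 at -7.08 and Tex14 at -5.40 lie beyond all genes drawn, the next being Aurkb at -4.04, and with estrogen Bcl2l10 at -4.37 lies beyond Tex14 at -3.84.

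The genes with the most similar profiles were found by the root mean square distance between log2 profiles over the 18 arrays, each centred on its own mean. For Dnajb13 the nearest 5 of 12251 genes were Slc38a5, a neutral amino acid transporter gene (distance 0.456), Slc18a2, the vesicular monoamine transporter gene (0.580), Tac1, the substance P precursor gene (0.638), Fbp1, a gluconeogenic enzyme gene (0.770), and Ccnd2, a cyclin gene (0.772). Tex14 ranked 7, at 0.877, while by the same distance Dnajb13 ranked 36 among the genes nearest to Tex14. In oocyte-free complexes the estrogen difference of Slc38a5 was 1.51, beside 1.38 for Dnajb13, and that of Fbp1 was -0.12.

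For Tex14 the nearest profiles were those of Tac1 (0.353), Ccnd2 (0.427), Rbfox1, a splicing regulator gene (0.509), Hsd17b1, which encodes an estradiol-forming enzyme (0.511), and Dynap (0.524). In cocultures the estrogen difference was -0.49 for Tac1 and -0.55 for Dynap, beside -0.72 for Tex14. It was 0.28 for Ccnd2 and 0.31 for Rbfox1. The 18 arrays share the split into those with and those without oocytes, and likeness apart from that split was not tested. Ranked by Pearson correlation instead, 3 of the nearest 5 were shared for Dnajb13 and 1 of 5 for Tex14.

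**Figure D5:**
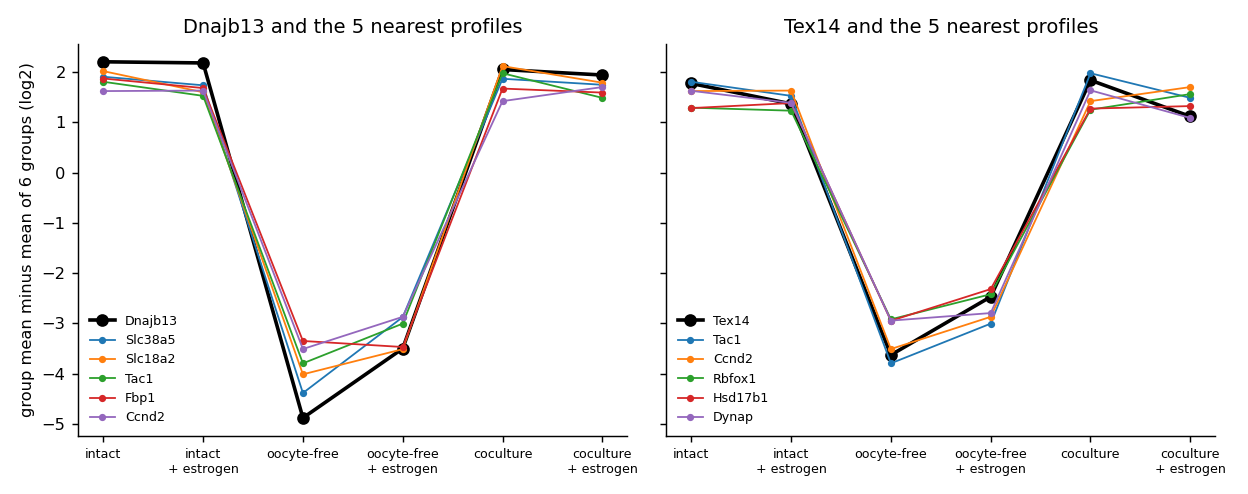
Lines join group means of log2 expression, less the mean of the 6 groups (y axis), over the 6 groups (x axis) for Dnajb13 (left) and Tex14 (right) in black and the 5 genes with the nearest profiles in colour. All lines are low in the oocyte-free groups, and Slc38a5 has an estrogen difference there of 1.51 beside 1.38 for Dnajb13.

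Genes next to each member did not share the size of its differences. The nearest 4 genes with a probe set on each side were taken in RefSeq order. Around Dnajb13, on chromosome 7, 6 of 8 were tested. On removal without estrogen Mrpl48, a mitochondrial ribosomal protein gene, fell by 0.89 (limma adjusted p = 0.000246) and C2cd3, a centriole gene, by 0.43 (limma adjusted p = 0.0324). Ppme1, Ucp3, Coa4 and Rab6a had differences of -0.32, 0.30, -0.20 and 0.19 and were not called. With estrogen C2cd3 fell by 0.47 and Ppme1, a phosphatase methylesterase gene, by 0.52 (limma adjusted p = 0.0301). The C2cd3 call without estrogen ended without any 1 of the 3 intact arrays or oocyte-free replicates 2 or 3 (-0.45 to -0.34), with the series term (-0.44), with the contradictory array relabelled (-0.38) and with the compared groups alone (-0.43). With estrogen it ended without any 1 of the 3 intact arrays or oocyte-free replicate 2 (-0.48 to -0.37), and that of Ppme1 without intact replicates 1 or 3 or oocyte-free replicates 2 or 3 (-0.53 to -0.40), with the series term (-0.42) and with the compared groups alone (-0.52).

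Around Tex14, on chromosome 11, 6 of 8 neighbours were tested. The promoter windows of Tex14 and Rad51c, a gene of homologous recombination, overlap by 210 bases on opposite strands. Rad51c read 7.36 in intact and 6.79 in oocyte-free complexes without estrogen and fell by 0.57 ± 0.192 (limma adjusted p = 0.0257), where Tex14 was 42.2-fold lower. With estrogen it fell by 0.73 (limma adjusted p = 0.00788). The call without estrogen ended with the series term (-0.11, limma adjusted p = 0.767) and without intact replicates 2 or 3 or oocyte-free replicates 1 or 2 (-0.57 to -0.44). That with estrogen ended without intact replicate 3 (-0.59) or oocyte-free replicate 3 (-0.51).

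Septin4, on the other side of Tex14, encodes a septin of the sperm annulus. It fell by 1.47 ± 0.249 on removal without estrogen (limma adjusted p = 0.000151), from 6.73 to 5.26, and fell by 1.89 with it. It rose by 1.39 and 1.72 on adding oocytes. Its oocyte-free means of 5.26 and, with estrogen, 5.20 lay below the medians of those arrays, 5.53 to 5.71. Its means with oocytes were 6.65 to 7.09. By these means it passed the filter on low values mainly through arrays with oocytes, which favours a fall on removal. Mtmr4, a lipid phosphatase gene, fell by 0.60 without estrogen (limma adjusted p = 0.0169). That call ended with the series term (0.00) and without intact replicate 2 (-0.56) or oocyte-free replicate 1 (-0.53). With estrogen Trim37, a ubiquitin ligase gene, rose by 1.03 (limma adjusted p = 0.00677) and Ppm1e, a phosphatase gene, by 0.81 (limma adjusted p = 0.0175). The Trim37 call ended with the contradictory array relabelled (0.75), and the Ppm1e call without intact replicates 2 (0.62) or 3 (0.71), without oocyte-free replicate 1 (0.73) and with that array relabelled (0.73). Ska2 differed by 0.09 and 0.13 and was not called.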

How the data were processed

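Cumulus cell RNA was amplified in 2 rounds and hybridised to 18 one-colour arrays, per the labels' protocols. The deposited values are log2 expression; the submitters' processing notes name RMA and Affymetrix Expression Console 1.1. Array medians were 5.51 to 5.71. No genome build is named for the probe annotation. Probe sets were named from the platform annotation with updated symbols (34945 with 1 symbol, 932 with several, 64 controls left out). Each gene was represented by its probe set with the highest mean, and 12252 genes above the array median in at least 3 arrays were compared. One limma 3.58.1 model (R 4.3.3) over the 6 groups gave differences and standard errors. Genes were called at an adjusted p under 0.05 (Benjamini-Hochberg over all genes compared). The fit was tested on simulated data. The text names both members, the 5 nearest profiles, up to 4 called genes per list with the largest removal difference, all called genes where 5 or fewer were called, called oocyte markers and neighbouring genes; unchanged genes named beside them were chosen after their values were seen. The members and lists were chosen with earlier results of these data known. Alternatives covered the replicate number, array series, a second quantile normalization, the contradictory label, the filter, array weights, the groups fitted, the choice of probe set and each array left out; within-series values were added after the data had been seen. The number of arrays limits the precision.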

Additional observations from a re-analysis of the deposited data

Results flagged for a closer look

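For Tex14 the estrogen difference in oocyte-free complexes exceeded that in intact complexes by 1.56 ± 0.321, and that in cocultures was lower than in oocyte-free complexes by -1.88 ± 0.321 (log2, SE). All arrays with estrogen were higher in the first setting and all were lower in the other two. With the array of contradictory labels counted as without estrogen, the values were 1.06 and -1.37, and the oocyte-free groups overlapped. This difference was not tested, because the gene was chosen on these arrays.

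The estrogen effect was compared between culture types by limma's interaction term, adjusted over all genes. Of these, 3.21% and 2.78% were called in the comparisons with intact complexes and with cocultures. Single genes are given for the neighbours and for the lists other than the granulosa, theca, endothelial and surface epithelium markers. Of the 21 tested bridge and midbody genes, 1 was called higher and 1 lower in the first comparison, and 1 higher and 2 lower in the second. For Cep55 the effect in oocyte-free minus that in intact complexes was 1.33 (limma adjusted p = 0.0358), and that in coculture minus oocyte-free was -1.69 (limma adjusted p = 0.00836). Septin9 gave -1.31 (limma adjusted p = 0.0162) and 1.17 (limma adjusted p = 0.0373). Aurkb gave -1.97 (limma adjusted p = 0.0454) and Trim37 -1.86 (limma adjusted p = 0.00952) in coculture minus oocyte-free. Over 25 alternatives, single arrays left out included, the Aurkb call ended under 17, those of Cep55 under 10 and 1, those of Septin9 under 3 and 11 and that of Trim37 under 1. All 6 calls ended when the array with contradictory labels was counted as without estrogen. The values were then 1.20 and -1.56 for Cep55, -0.85 and 0.71 for Septin9, -0.94 for Aurkb and -1.04 for Trim37. Of the 5 tested theca and stroma markers, 3 were called higher in the first comparison and 3 lower in the second. Of the 12 tested granulosa and cumulus markers, 1 was called higher and 1 lower in each. The other lists held no such call.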

How the results depend on the processing

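All removal and add-back differences of Dnajb13 and Tex14 kept their sign under the 23 or 24 alternatives computed for them. These did not include the fits with no filter, with array weights or of the compared groups alone. With the array series as a term, removal without estrogen was -6.68 for Dnajb13 and -5.04 for Tex14, added oocytes gave 6.63 and 5.12, 3124 genes were called on removal without estrogen in place of 4746, 2 oocyte markers fell with estrogen in place of 1, and Mtmr4 was at 0.00 in place of -0.60. A second quantile normalization gave -6.79 and 6.65 for Dnajb13. With the contradictory array counted as without estrogen, removal was -6.62 and -5.04, added oocytes 6.47 and 5.10, the estrogen difference in oocyte-free complexes 0.69 and 0.65, and 1 DNAJB gene rose with estrogen in place of 2. With the most variable probe set per gene, 6 DNAJB genes fell without estrogen in place of 3. With no filter on low values, 2 axonemal, 2 germ cell and 3 oocyte marker genes rose without estrogen, and 1 axonemal gene rose and 2 oocyte markers fell with it; more genes are tested there. With array weights 2 germ cell genes fell. The share of all genes called is not given for the fits with no filter, array weights, the most variable probe set or the relabelled array. The list counts under these settings thus have no background beside them. Within array series, Dnajb13 had an estrogen difference of 0.77 in oocyte-free complexes, and Tex14 had 0.47 there, -3.50 for removal with estrogen and 5.78 and 3.25 for added oocytes. Leaving out 1 array at a time gave Tex14 -4.03 to -3.50, 3.25 to 3.78 and 0.96 to 1.50 for removal, added oocytes (both with estrogen) and estrogen in oocyte-free complexes. The bridge genes higher on removal without estrogen were 1 to 2, and the DNAJB genes higher 1 to 2 in either medium. The cause of these shifts was not tested. Of 85 called differences of named genes, 47 held under every alternative and 38 ended under at least 1. This count covers neighbouring genes and named list genes, oocyte markers included. The named granulosa and theca markers were not part of it, and their calls were not followed over the alternatives. Replicate numbers gave no clear pairing of the arrays. Over 45 pairs of same-numbered arrays the correlation of deviations was -0.327 to 0.422, and 14 pairs were over 0.1. Of 18 arrays, 8 correlated best with their own number. Title numbers run from 1 to 6, 7 to 12 and 13 to 18, with each group once in each run. Whether a run was 1 experiment is not stated, and these correlations cannot show that the arrays were unpaired. With the replicate block, removal without estrogen stayed at -7.08 and -5.40, and 4728 genes were called.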
